A study of Homo sapiens with 30 samples.

Results

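Inflammasomes are protein platforms that turn the sensing of DNA, microbial products or cell stress into caspase-1 activity. The 8 genes described here cover that route. IFI16 and AIM2 encode DNA-binding sensors of the PYHIN family, NLRP1, NLRP2 and NLRP11 encode receptors of the NLR family, PYCARD encodes the adaptor ASC, CASP1 encodes caspase-1, and GSDMD encodes gasdermin D, the pore-forming substrate of inflammatory caspases. They were picked by name from the tables of a FOXM1 knockout study in human multiple myeloma cell lines. Of 16407 genes listed for the line OPM2 they are 8, and of 17286 listed for the line Delta47 they are 7, since AIM2 was not analysed here in Delta47. The choice was made with values in view: IFI16 was lower in all 4 knockout clones than in unedited cells, and NLRP11 differed between the OPM2 clones. All comparisons of a knockout clone with unedited cells, and that of the OPM2 clones with each other, are therefore given as descriptions without a test.

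All groups hold 3 libraries each of poly-A RNA. In OPM2 they are KO1R (knockout clone 1 carrying a FOXM1 overexpression vector), KO1EV (the same clone with an empty vector), the untransduced clones KO2 and KO1, and unedited WT cells. In Delta47 they are KO2R (knockout clone 2 with the FOXM1 vector), the untransduced clones KO2 and KO1, and WT, while the empty-vector group of this line was not analysed here. All the knockouts were made with Cas9 and guides against exon 2 of FOXM1, a forkhead transcription factor of the cell cycle, and the vector encodes the isoform FOXM1c and was delivered by lentivirus with a sort for GFP, which is not stated for the empty vector. Each knockout group is 1 clone, so loss of FOXM1 and the properties of a clone cannot be told apart, and in Delta47 the FOXM1c vector cannot be told apart from transduction and sorting. In OPM2, KO1R and KO1EV may differ in sorting as well as in FOXM1c. There FOXM1c cannot be told apart from sorting or from other differences between the transduced populations. Nothing states that the 3 libraries of a group came from separate cultures, so p-values measure only the spread between libraries, which may be technical.

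In resting cells the sensors are held inactive, and binding of a ligand lets them gather ASC through pyrin domains. ASC filaments then bring caspase-1 molecules together, and active caspase-1 matures interleukin-1β and interleukin-18 and cleaves gasdermin D. IFI16 is itself induced by interferon and also acts in the nucleus, where it binds DNA and takes part in the interferon response to viral genomes. NLRP1 can use its own CARD domain to bind the route to caspase-1, and NLRP11 has been described as a primate-restricted receptor that takes part in caspase-4 and NLRP3 inflammasomes. AIM2 and CASP1 are best known from myeloid cells, and plasma cells, from which myeloma arises, are not their classical setting.

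The promoters of IFI16 and NLRP11 are shown because, of the 4 genes tested in OPM2, these were the ones called between the FOXM1c vector and the empty vector. Windows of 300 bases (250 before to 50 after a start site, RefSeq, GRCh38.p14) were found for 5 of the 8 genes. IFI16 and NLRP11 have 2 windows each. Printed 5′ to 3′ are chr1:159009657-159009956 (plus strand, IFI16) and chr19:55831950-55832249 (minus strand, NLRP11), and capitals mark a match to TGTTTA, the core letters of a forkhead element.
IFI16: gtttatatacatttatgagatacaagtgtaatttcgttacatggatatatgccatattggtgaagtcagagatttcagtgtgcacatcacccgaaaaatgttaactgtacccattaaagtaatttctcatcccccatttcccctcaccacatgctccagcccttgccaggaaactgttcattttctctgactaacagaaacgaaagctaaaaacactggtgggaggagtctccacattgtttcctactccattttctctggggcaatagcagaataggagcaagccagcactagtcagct
NLRP11: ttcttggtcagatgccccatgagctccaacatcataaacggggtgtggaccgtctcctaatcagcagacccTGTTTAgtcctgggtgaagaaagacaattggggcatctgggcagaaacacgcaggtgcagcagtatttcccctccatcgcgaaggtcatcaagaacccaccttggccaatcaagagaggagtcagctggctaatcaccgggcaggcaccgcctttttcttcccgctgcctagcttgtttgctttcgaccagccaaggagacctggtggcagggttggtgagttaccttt
The letters searched on both strands were TGTTTAC and TGTTTA for forkhead factors (the first contains the second), TTTGAA and TTCGAA for the cell cycle homology region, TTCNNNGAA for STAT factors and, for the interferon response element, GAAA followed after any 2 bases by GAAA again. The IFI16 window held none of them and is in lower case throughout. The NLRP11 window held TGTTTA once, at position −179 from the start site. Of the windows not printed, that of NLRP11 held TGTTTA at −186 and that of IFI16 held TTTGAA at −187, both on the opposite strand. TGTTTA occurs in 12.3% of 35116 RefSeq promoter windows of this length, TTTGAA in 15.2%, TGTTTAC in 3.42%, TTCGAA in 1.45%, the STAT letters in 7.66% and the interferon element in 3.57%. A match is a description of letters and not of binding.

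FOXM1 transcript was read in every library first. In OPM2 it lay at 262.89 to 291.72 FPKM (fragments scaled to transcript length and library size) in KO1R, 105.33 to 108.77 in KO1EV, 57.11 to 69.73 in KO2, 91.24 to 93.28 in KO1 and 175.26 to 176.80 in WT. In Delta47 the authors' expression value, whose unit the table does not name, lay at 94.37 to 102.44 in KO2R, 45.35 to 47.11 in KO2, 46.09 to 49.78 in KO1 and 87.10 to 90.85 in WT. FOXM1 was thus lower in every knockout library without the FOXM1c vector than in WT and higher with it, although reads from edited transcripts are counted as well and say nothing of the protein. All 8 plasma cell markers were present in both lines, and CSF1R and ITGAM, which define monocytes and macrophages, were at 0.1 or less in each. Of 8 monocyte markers 6 were listed in each line, and 2 of them reached 1 FPKM in OPM2. Their summed level there was 1.03 to 1.67 FPKM in KO1R, 0.94 to 1.29 in KO1EV, 0.95 to 1.35 in KO2, 1.67 to 2.05 in KO1 and 1.14 to 1.71 in WT, and it was at most 1.28 in Delta47. In Delta47 the summed fibroblast and endothelial markers, of which 1 of 5 reached 1 and DCN was at 0.1 or less, were 13.41 to 15.05 in KO2R, 14.16 to 15.89 in KO2, 3.16 to 3.48 in KO1 and 1.59 to 1.72 in WT. The summed epithelial markers, of which 3 of 5 reached 1, were 12.01 to 12.87 in KO2R, 9.59 to 11.2 in KO2, 7.94 to 8.55 in KO1 and 5.49 to 6.47 in WT. The part of these markers in the results below was not tested. In OPM2, replicate 3 of KO2 and replicate 3 of KO1EV stood apart from their groups. Their standard deviation over genes around the mean of the other libraries of the group was 0.533 and 0.271 (log2), against 0.277 to 0.282 for the other KO2 libraries and 0.158 for the other KO1EV libraries. The main results in OPM2 are also given without both libraries.

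IFI16, the nuclear DNA sensor, was higher in OPM2 cells with the FOXM1c vector than in those with the empty vector. It had 3.01, 3.46 and 3.37 FPKM in KO1R, against 1.32, 1.12 and 1.09 FPKM in KO1EV. Every KO1R library thus lay above every KO1EV library, and the means were 3.28 ± 0.238 FPKM in KO1R and 1.177 ± 0.125 FPKM in KO1EV (SD, n = 3 each), a ratio of 2.79. On the log2(FPKM + 1) scale, which understates changes of low genes, IFI16 rose by 0.98 ± 0.15 (SE, limma, adjusted p = 0.00105), while the median over all 10309 tested genes was −0.06. In this comparison 8.23% of the tested genes were called at an adjusted p below 0.05, and the groups of 42.8% did not overlap. This contrast shares no library with those by which IFI16 was chosen, but both its groups derive from clone KO1, whose lower level was part of that choice. Without KO1EV replicate 3 and KO2 replicate 3 the difference was 0.95 (adjusted p = 1.68e-06, the lowest among 15 other settings, of which the highest was 0.00789).

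Cells with the empty vector stood below the untransduced clone in IFI16. KO2 had 2.11, 2.10 and 0.95 FPKM of IFI16, KO1 had 2.53, 2.36 and 2.32 FPKM, and WT had 4.55, 5.14 and 3.95 FPKM. The order of the group means was WT, KO1R, KO1, KO2 and KO1EV, and of neighbours in that order KO2 and KO1EV overlapped. IFI16 therefore sat between the knockout clone and WT when FOXM1c was present, with a log2 difference of 0.33 from KO1 and of −0.37 from WT, and it was below both with the empty vector (−0.65 against KO1). These 3 differences are descriptions because they use the libraries by which the gene was chosen. Against WT the difference was −1.06 in KO2, or −0.83 without KO2 replicate 3, and −0.70 in KO1, and neither clone overlapped WT. Between KO2 and KO1 it was −0.36, or −0.13 without KO2 replicate 3. Groups that do not overlap were found for 28.5% of tested genes in KO2 against WT and 60.7% in KO1 against WT. The share was 50.9% in KO1R against WT, 57.9% in KO1R against KO1 and 34.7% in KO2 against KO1. Nothing is read from IFI16 being among these genes. In bulk RNA, fewer cells that express a gene and less of its RNA per cell cannot be told apart.

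In Delta47, IFI16 in cells with the FOXM1c vector lay within the range of the untransduced clone or just below it. IFI16 had 21.10, 22.62 and 22.46 in KO2R, 22.49, 23.35 and 22.65 in KO2, 29.23, 29.24 and 30.30 in KO1, and 46.90, 47.78 and 46.84 in WT (authors' expression value). KO2R and KO2 overlapped, both lay below every KO1 library, and KO1 lay below every WT library. The log2 differences were −0.05 ± 0.04 (SE) for KO2R against KO2, −1.02 for KO2 against WT, −0.66 for KO1 against WT and −0.36 for KO2 against KO1, all given without a test because KO2, KO1 and WT served to choose IFI16. The sign of the first turned under 3 other settings, where it was 0.01 with quantile scaling, 0.05 with median scaling and 0.02 with the trend on transcript length removed. Groups that do not overlap made up 53.1% of tested genes in KO2 against WT, 59.5% in KO1 against WT and 54.8% in KO2 against KO1. Most tested neighbours of IFI16 on chromosome 1 were also lower in the Delta47 clones than in WT. Of the 10, 9 had lower means than WT in both clones, given without a test because these comparisons chose IFI16. As background, the median log2 difference from WT over all tested genes was 0.05 in KO2 and 0.02 in KO1. By the stricter measure of a limma call (adjusted p below 0.05), 15.2% of them were lower in KO2 and 23.7% in KO1. Those shares are not comparable with a count of lower means. For the 2 genes next to IFI16 the log2 differences from WT were −0.66 in KO2 and −0.84 in KO1 for ETV3, an ETS-family repressor gene, and −0.70 in KO2 and −0.88 in KO1 for DUSP23, a phosphatase gene. ARHGEF11 (−0.74 in KO2 and −0.91 in KO1), PRCC (−0.67 and −0.69) and HDGF (−0.74 and −0.67) lay in the same range, and the other 4 with lower means lay at −0.31 to −0.43 in KO2 and −0.25 to −0.59 in KO1. The 10th, KCNJ10, was at −0.02 in KO2 and was higher in KO1 (0.26). The lower level of IFI16 in these clones thus came with lower levels of its neighbours, whose part in it was not tested.

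AIM2, the cytosolic DNA sensor encoded beside IFI16 on chromosome 1, was near the floor of the OPM2 table. It was listed at 0, 0.05 and 0.10 FPKM in KO1R, at 0 in every KO1EV and KO1 library, at 0.07, 0.14 and 0.10 FPKM in KO2 and at 0.09, 0 and 0.05 FPKM in WT. No value reached 1 FPKM, so AIM2 was not tested. The nearest tested genes on either side of IFI16 in the RefSeq order were again ETV3 and DUSP23. Their log2 differences from WT in OPM2 were −0.49 in KO2 and 0.81 in KO1 for DUSP23, and −0.10 in KO2 and 0.10 in KO1 for ETV3. Neither was called by limma between KO1R and KO1EV (log2 difference 0.18, adjusted p = 0.137 for ETV3, and −0.08, adjusted p = 0.749 for DUSP23), and ETV3 had an unadjusted p of 0.0221.

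**Figure D1:**
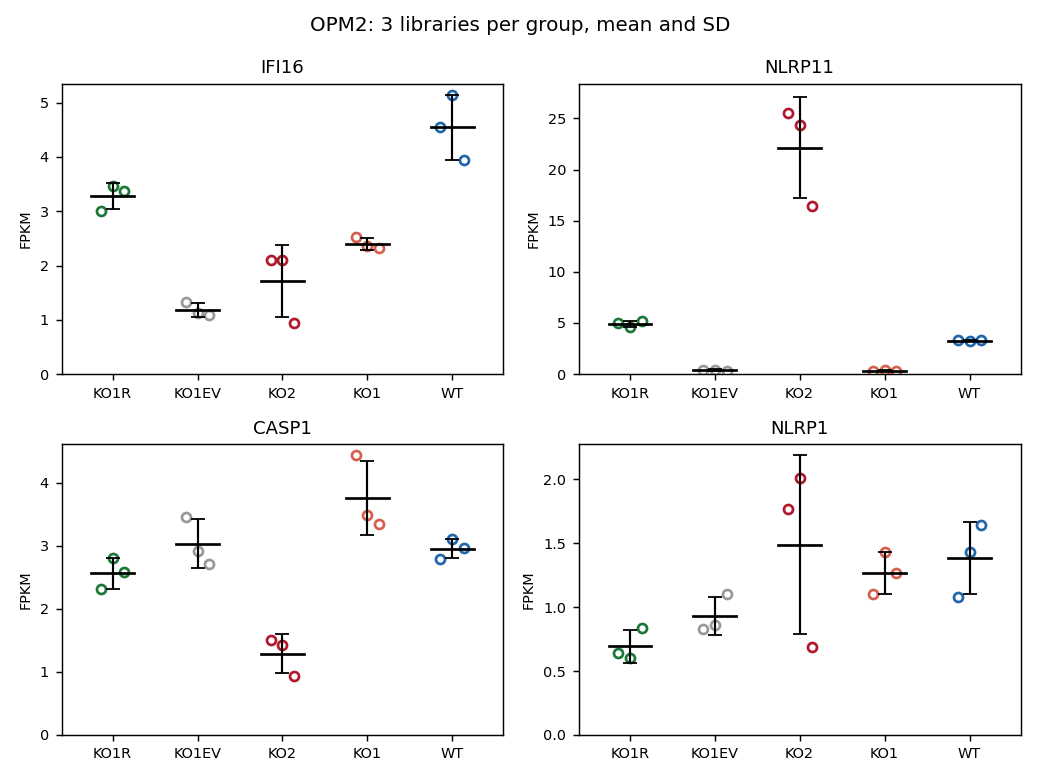
Level in FPKM (vertical axis, linear) of IFI16, NLRP11, CASP1 and NLRP1 in the 5 OPM2 groups. Circles are libraries, bars are the mean and the standard deviation of 3 libraries, and IFI16 in KO1R (3.01 to 3.46) lies above KO1EV (1.09 to 1.32) and below WT (3.95 to 5.14).

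NLRP11, an NLR receptor gene on chromosome 19, had the widest range of the 8 in OPM2. It was at 25.54, 24.40 and 16.48 FPKM in KO2, at 0.35, 0.36 and 0.30 FPKM in KO1, and at 3.33, 3.22 and 3.31 FPKM in WT. The clones thus lay on opposite sides of WT, with log2 differences of 2.41 for KO2 and −1.68 for KO1, and of 4.09 between KO2 and KO1. These differences chose the gene and carry no test. Without KO2 replicate 3, the lowest of its group, KO2 differed by 2.60 from WT and by 4.28 from KO1. Of all tested genes, 14.4%, 21.2% and 29.9% were called in KO2 against WT, KO1 against WT and KO2 against KO1. The groups of 34.7% of tested genes did not overlap between KO2 and KO1.

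With the FOXM1c vector the level in KO1 cells was above that in WT. KO1R had 5.03, 4.59 and 5.18 FPKM, against 0.44, 0.42 and 0.29 FPKM in KO1EV. All KO1R libraries lay above those of WT as well, while KO1EV overlapped with KO1. KO1R and WT did not overlap for 50.9% of tested genes. NLRP11 rose by 2.10 ± 0.12 (SE) on the log2 scale in KO1R against KO1EV (limma, adjusted p = 2.11e-07, where 8.23% of tested genes were called), with means of 4.933 ± 0.307 FPKM in KO1R and 0.3833 ± 0.0814 FPKM in KO1EV (SD, n = 3 each), a ratio of 12.9. NLRP11 passed the filter on low values through KO1R, KO2 and WT, and no KO1EV or KO1 library reached 1 FPKM. KO1EV comes from clone KO1, whose low level helped to choose the gene. The low side of this comparison was thus not independent of that choice. Without KO1EV replicate 3 and KO2 replicate 3 the difference was 2.05 (adjusted p = 1.85e-11, within 1.85e-11 to 1.49e-05 over 16 other settings). The order of the means was KO2, KO1R, WT, KO1EV and KO1, and of neighbours only KO1EV and KO1 overlapped.

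NLRP5 is known as a maternal-effect gene of the oocyte and is the nearest tested gene to NLRP11 on one side. It had 1.39, 1.33 and 1.31 FPKM in KO1R, 0, 0.03 and 0 FPKM in KO1EV, 3.50, 3.49 and 2.66 FPKM in KO2, 0.02, 0.05 and 0.04 FPKM in KO1, and 0.07, 0.03 and 0.04 FPKM in WT. High and low libraries fell as for NLRP11 in KO1R, KO2, KO1EV and KO1, but WT was low for NLRP5 and not for NLRP11. The log2 difference of NLRP5 between KO1R and KO1EV was 1.21, given without a test because NLRP5 passed the filter on low values only through KO1R and KO2, the groups where it was high. The other 9 tested neighbours of NLRP11, from ZNF581 to ZNF583, were not called in this comparison, and 1 of them had an unadjusted p below 0.05. NLRP4 and NLRP9, further genes of the family, did not pass the filter and so were not counted among the neighbours. They stayed at 0.19 FPKM or less in every OPM2 library.

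**Figure D2:**
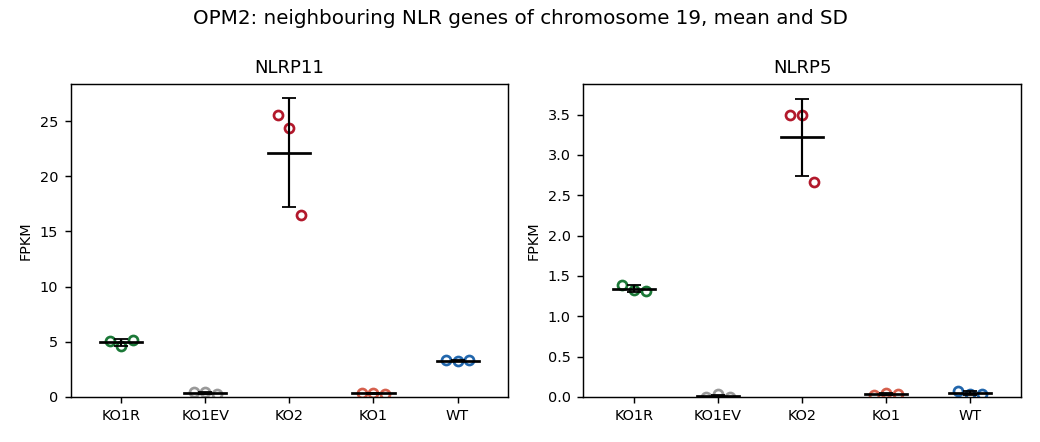
Level in FPKM (vertical axis, linear) of NLRP11 and of NLRP5, the nearest tested gene on one side, in the 5 OPM2 groups. Circles are libraries, bars are the mean and the standard deviation of 3 libraries, and both genes are high in KO2 and KO1R and near 0 in KO1EV and KO1, while WT has 3.22 to 3.33 FPKM of NLRP11 but 0.03 to 0.07 FPKM of NLRP5.

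In Delta47 NLRP11 was near 1 to 2 in every group and highest with the FOXM1c vector. It had 1.85, 1.86 and 2.08 in KO2R, 1.40, 1.15 and 1.40 in KO2, 1.09, 1.44 and 1.42 in KO1, and 0.97, 0.92 and 1.06 in WT (authors' expression value). All KO2R libraries lay above those of KO2, the clones overlapped each other, and both clones lay above WT. KO2 and WT did not overlap for 53.1% of tested genes, and KO1 and WT for 59.5%. NLRP11 rose by 0.34 ± 0.08 (SE) in KO2R against KO2 (limma, adjusted p = 0.00168), against a median of −0.05 over the 11001 tested genes. In this comparison 62% of all tested genes were called and the groups of 65.6% did not overlap, so calls there were the rule and not the exception. Between the clones the difference was 0.0017 ± 0.08 (adjusted p = 0.99), and against WT it was 0.22 in each clone, given without a test.

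NLRP1, a sensor of pathogen proteases and ribotoxic stress, was low in OPM2. It was at 0.64, 0.60 and 0.84 FPKM in KO1R, 0.83, 0.86 and 1.10 FPKM in KO1EV, 1.77, 2.01 and 0.69 FPKM in KO2, 1.10, 1.43 and 1.27 FPKM in KO1, and 1.08, 1.43 and 1.64 FPKM in WT. All neighbours in the order KO2, WT, KO1, KO1EV and KO1R overlapped, and the widest group was KO2, through its replicate 3. The difference of −0.19 between KO1R and KO1EV was not called (limma, adjusted p = 0.524, within 0.201 to 0.839 over other settings), and it was −0.13 without KO1EV replicate 3 and KO2 replicate 3 (adjusted p = 0.405). That of −0.42 between KO1R and KO1, which do not overlap, missed the threshold too (adjusted p = 0.0989), but passed it without KO1EV replicate 3 and KO2 replicate 3 (adjusted p = 0.00149) and with only KO1R and KO1 in the fit (0.00326), against a highest value of 0.324 over its 15 other settings. Groups that do not overlap were 57.9% of tested genes in that comparison. Between KO1EV and KO1 the difference of −0.23 was not called either (adjusted p = 0.548), but was without those libraries (−0.29, adjusted p = 0.0425, within 0.0425 to 0.835).

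In Delta47 NLRP1 was at 9.32, 10.80 and 10.61 in KO2R, 12.64, 12.03 and 12.69 in KO2, 7.84, 8.31 and 8.52 in KO1, and 9.17, 8.90 and 9.19 in WT (authors' expression value). The groups ran KO2, KO2R, WT and KO1, and no neighbours in that order overlapped. Of all tested genes, 65.6% did not overlap between KO2R and KO2, 69.3% between KO2R and WT, and 59.5% between KO1 and WT. NLRP1 was higher in KO2 than in KO1 by 0.54 ± 0.06 (SE, limma, adjusted p = 2e-06), a comparison in which 42.1% of tested genes were called. It was lower in KO2R than in KO2 by a log2 difference of −0.26 ± 0.06 (adjusted p = 0.000817, where 62% of tested genes were called). With the trend on transcript length removed that difference was −0.03 (adjusted p = 0.597, the highest of 15 other settings, of which the lowest was 0.000617), whereas the difference between the clones was 0.42 (adjusted p = 1.19e-05, within 1.22e-06 to 6.66e-05). NLRP2, an NLR gene of chromosome 19, was listed at 0.03 or less in every library of both lines.

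PYCARD, the adaptor gene, was near 0 in OPM2 and clearly present in Delta47, where it was higher in both clones than in WT. In OPM2 it was listed at 0 in 13 libraries and at 0.09 FPKM in the other 2, both of KO2, and it was not tested. In Delta47 it had 36.25, 34.18 and 30.87 in KO2R, 28.48, 26.55 and 25.81 in KO2, 25.59, 25.97 and 26.51 in KO1, and 15.46, 17.33 and 18.97 in WT (authors' expression value). Every knockout library lay above every WT library, and KO2R lay above the untransduced clones. KO2R and WT did not overlap for 69.3% of tested genes, KO2 and WT for 53.1%, KO1 and WT for 59.5%, and KO2R and KO2 for 65.6%. PYCARD rose by 0.31 ± 0.07 (SE) in KO2R against KO2 (limma, adjusted p = 0.000631, and 0.000156 to 0.00676 over 15 other settings), where 62% of all tested genes were called. The clones did not differ beyond their spread (0.05, adjusted p = 0.596). Against WT the log2 difference was 0.62 in KO2 and 0.57 in KO1, given without a test. The tables were normalized separately, so levels of a gene in OPM2 and Delta47 stand side by side and were not tested.

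CASP1, the caspase at the end of the route, was lowest in clone KO2 of OPM2. It had 2.31, 2.80 and 2.58 FPKM in KO1R, 3.46, 2.91 and 2.71 FPKM in KO1EV, 1.51, 1.42 and 0.93 FPKM in KO2, 4.43, 3.49 and 3.34 FPKM in KO1, and 2.79, 3.10 and 2.97 FPKM in WT. KO2 lay below all other groups, with a log2 difference from WT of −0.80, or −0.68 without KO2 replicate 3, while KO1 lay above WT by 0.26, both given without a test. Groups that do not overlap were 28.5% of tested genes in KO2 against WT, 34.7% in KO2 against KO1 and 60.7% in KO1 against WT. Between KO1R and KO1EV, which overlap, the difference of −0.17 was not called (limma, adjusted p = 0.371), nor was that of −0.24 between KO1EV and KO1 (adjusted p = 0.298). Without KO1EV replicate 3 and KO2 replicate 3 these were −0.23 (adjusted p = 0.0918, within 0.0918 to 0.682 over other settings) and −0.18 (adjusted p = 0.172, within 0.172 to 0.669). CASP1 fell by 0.41 on the log2 scale in KO1R against KO1 (SE 0.11, adjusted p = 0.0212, where 21.7% of tested genes were called). That call was lost with quantile scaling (−0.26, adjusted p = 0.121), with median scaling (−0.31, 0.106), without KO1R replicate 1 (0.0946) and without KO1 replicate 1 (0.0909), within a range of 0.00104 to 0.121. Median scaling also moved the median of all genes in this comparison to 0.02, against −0.08 in the unscaled values.

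In Delta47 CASP1 had 1.62, 1.12 and 1.55 in KO2R, 1.02, 1.09 and 0.98 in KO2, 1.05, 0.97 and 1.14 in KO1, and 1.09, 0.96 and 0.74 in WT (authors' expression value). KO2R had the highest libraries, and its replicate 2 lay just above the highest KO2 library and below the highest KO1 library. CASP1 rose by 0.25 ± 0.09 (SE) in KO2R against KO2 (limma, adjusted p = 0.0246, where 62% of tested genes were called). The call was lost without KO2R replicate 1 (0.107), KO2R replicate 3 (0.0845), KO2 replicate 1 (0.0563) or KO2 replicate 3 (0.068), and with the length trend removed (0.0896), within a range of 0.00303 to 0.107. CARD16, whose transcript closely resembles the start of that of CASP1, is listed separately (in OPM2 1.287 ± 0.366 FPKM in KO1R and 2.413 ± 0.444 FPKM in KO1EV), and how reads common to both were counted is not given in the sources used here, so the CASP1 level is uncertain to that extent.

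**Figure D3:**
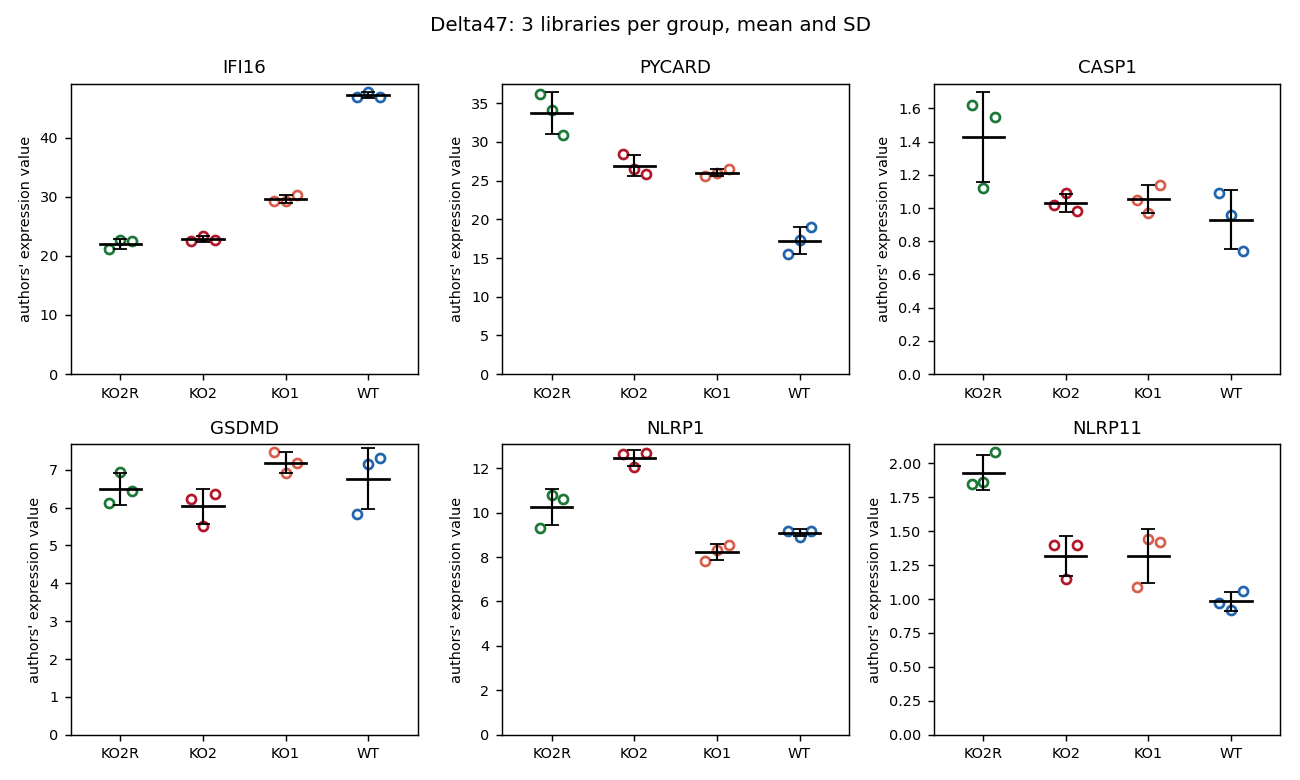
Authors' expression value (vertical axis, linear) of IFI16, PYCARD, CASP1, GSDMD, NLRP1 and NLRP11 in the 4 Delta47 groups. Circles are libraries, bars are the mean and the standard deviation of 3 libraries, and IFI16 is highest in WT (46.84 to 47.78) while PYCARD is lowest there (15.46 to 18.97).

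GSDMD, the executioner of pyroptosis, was at 0.07 to 0.45 FPKM in OPM2 and was not tested there. In Delta47 it had 6.11, 6.94 and 6.43 in KO2R, 6.24, 5.51 and 6.37 in KO2, 7.47, 6.91 and 7.17 in KO1, and 5.84, 7.15 and 7.30 in WT (authors' expression value). It was lower in KO2 than in KO1 by a log2 difference of −0.22 ± 0.08 (SE, limma, adjusted p = 0.03, where 42.1% of tested genes were called). This call was lost in 5 of 15 other settings, without KO2 replicate 2 (0.137), KO1 replicate 1 (0.0994) or KO1 replicate 3 (0.0636), with no filter on low values (0.0747) and with the length trend removed (0.0576), within a range of 0.0108 to 0.137. KO2R and KO2 overlapped, and their difference of 0.09 was not called (adjusted p = 0.312), though it passed with quantile scaling (0.20, adjusted p = 0.0313) and median scaling (0.19, adjusted p = 0.0492), within a range of 0.0313 to 0.808.

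**Figure D4:**
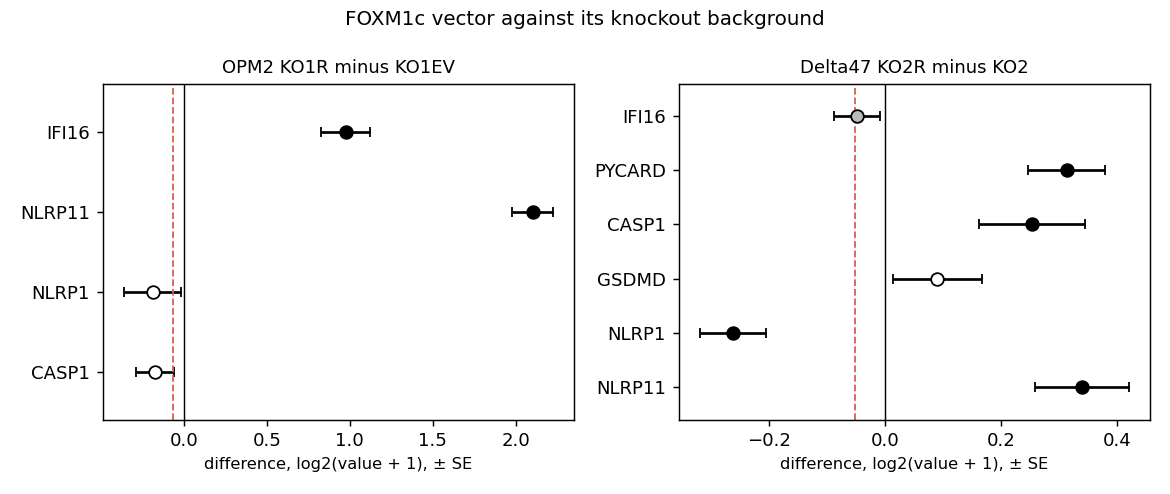
Difference on the log2(value + 1) scale (horizontal axis) with its standard error for the tested genes, in OPM2 KO1R minus KO1EV (left) and Delta47 KO2R minus KO2 (right). Black points passed the test, white points did not, the grey point had no test, and the dashed line is the median of all tested genes (−0.06 and −0.05). IFI16 (0.98) and NLRP11 (2.10) stand far above that line in OPM2, and the panels have different horizontal scales.

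The other genes of the route were counted by list. Between KO1R and KO1EV in OPM2, none of 4 tested NLR and related sensor genes other than NLRP5, none of 7 adaptor, caspase and regulator genes and none of 4 effector genes was called either way by limma at an adjusted p below 0.05, where 8.23% of all genes were. At an unadjusted p below 0.05, 0 of those sensor genes, 2 of the adaptor, caspase and regulator genes, 0 of the effector genes, 4 of 14 DNA-sensing genes and 4 of 13 interferon-stimulated genes passed. Of 14 DNA-sensing genes 1 fell, SAMHD1, an enzyme that degrades deoxynucleotides (11.77 ± 0.156 FPKM in KO1R and 17.87 ± 3.01 FPKM in KO1EV, log2 difference −0.55, adjusted p = 0.0464), and of 13 interferon-stimulated genes 1 rose, BST2, which tethers virus particles (147.6 ± 7.67 FPKM in KO1R and 120.7 ± 8.79 FPKM in KO1EV, log2 difference 0.29, adjusted p = 0.0434). SAMHD1 was lost in 11 of 16 other settings (adjusted p = 0.00027 to 0.181) and BST2 in 6 of 16 (0.0037 to 0.174), and both were lowest without KO1EV replicate 3 and KO2 replicate 3 (−0.42 for SAMHD1 and 0.24 for BST2). Without KO1EV replicate 3 and KO2 replicate 3, when 26.4% of all genes were called, the counts were 2 higher for adaptors and caspases, 1 lower for effectors, 2 higher and 3 lower for DNA sensing, and 7 higher with none lower for interferon-stimulated genes. Between KO1R and KO1, where 21.7% of all genes were called, 2 of 7 adaptor, caspase and regulator genes and 3 of 14 DNA-sensing genes were lower, 2 of 13 interferon-stimulated genes were higher and 2 lower, and no effector gene was called (1 at an unadjusted p below 0.05). The other PYHIN genes, MNDA and PYHIN1, were not analysed here. The median difference between KO1R and KO1EV was −0.15 for the 5 tested sensors with NLRP5, 0.13 for adaptors and caspases, −0.13 for effectors, −0.07 for DNA sensing and 0.28 for the interferon-stimulated genes, against −0.06 for all genes.

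CASP4, the caspase that senses bacterial lipopolysaccharide and a neighbour of CASP1, was lower in OPM2 cells with the empty vector than in the untransduced clone. It averaged 7.56 ± 0.755 FPKM in KO1R, 5.223 ± 0.135 in KO1EV, 2.883 ± 0.872 in KO2, 10.39 ± 1.17 in KO1 and 6.637 ± 0.414 in WT (SD, n = 3 each). The clone KO1 thus had the highest mean, and the CASP4 difference of −0.29 between KO1EV and WT was not called (limma, adjusted p = 0.157). CASP4 was lower in KO1EV than in KO1 by a log2 difference of −0.87 ± 0.14 (SE, limma, adjusted p = 0.00204, where 4.95% of tested genes were called), and its difference of 0.46 between KO1R and KO1EV was not called (adjusted p = 0.0586). Without KO1EV replicate 3 and KO2 replicate 3 the first was −0.85 (adjusted p = 1.44e-05, within 1.44e-05 to 0.00521 over the settings that use the whole line). The second was then 0.44 and was called (adjusted p = 0.00254, within 0.00254 to 0.0907), as it was with quantile (0.0249) and median scaling (0.0418).

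In Delta47 62% of all genes were called between KO2R and KO2, so a count over a list is read against that share. Of 6 adaptor, caspase and regulator genes 3 rose and 2 fell. TXNIP, which binds thioredoxin and has been linked to NLRP3, averaged 21.65 in KO2R and 12.48 in KO2 (authors' expression value) and rose by 0.75 (limma, adjusted p = 5.42e-09), CASP4 rose by 0.48 (5.08e-06), NEK7, a kinase that bridges NLRP3, rose by 0.20 (0.01), and DPP9, a peptidase that restrains NLRP1 and CARD8, fell by 0.47 (2.81e-07). Of 5 sensor genes 1 fell, the mitochondrial NLRX1 (−0.29, adjusted p = 0.000299), and of 4 effector genes 1 fell, the channel gene PANX1 (−0.43, 1.23e-05). With the length trend removed, NLRX1 (0.0577) and NEK7 (0.123) were no longer called, and NEK7 also lost its call without KO2R replicate 3 (0.0557).

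Among 14 DNA-sensing genes 1 rose and 6 fell, with PRKDC, the DNA-dependent protein kinase, at 16.14 in KO2R and 29.9 in KO2 (log2 difference −0.86, adjusted p = 1.22e-07), SAMHD1 at a difference of −0.32 (0.000652), the Z-form nucleic acid sensor ZBP1 at −0.39 (0.000974) and IRF3, which drives interferon transcription, at −0.20 (0.00109). IRF3 was no longer called with median scaling (0.104). Of 25 interferon-stimulated genes 7 rose and 8 fell. IFITM2 (1.01, adjusted p = 1.95e-07) and IFITM1 (1.14, 3.43e-06), which block virus entry, and ISG15 (0.61, 4.28e-07), a ubiquitin-like modifier, rose, whereas the antiviral GTPase gene MX1 fell by 0.49 (3.18e-06). The medians over these lists were −0.11 for sensors, 0.02 for adaptors and caspases, −0.02 for effectors and −0.05 each for DNA sensing and interferon-stimulated genes, against −0.05 for all genes. Of the 10 tested neighbours of IFI16 in Delta47, 6 were called in this comparison, with DUSP23 higher and 5 lower, and of those of NLRP11 5 were called, with ZNF581 higher and 4 lower.

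The genes whose pattern was most like that of IFI16 in both lines were LILRB4, RRM2B, SPATS2L, HJURP and CSNK1G3, ranked among 7100 genes by the smaller of the Pearson coefficients over the 15 OPM2 and the 12 Delta47 libraries. LILRB4, an inhibitory receptor of myeloid cells, had 0.921 and 0.928. It averaged 39.61 FPKM in KO1R, 16.33 in KO1EV, 22.85 in KO2, 50.1 in KO1 and 69.76 in WT of OPM2. In Delta47 LILRB4 averaged 31.71 in KO2R, 30.97 in KO2, 73.23 in KO1 and 97.93 in WT (authors' expression value), so that KO2R and KO2 stood together as they did for IFI16. RRM2B, a ribonucleotide reductase subunit, had 0.871 and 0.951. The points share libraries and groups, so the coefficients are descriptions. For NLRP11 in OPM2 the closest of 8050 genes were RPS6KC1 (0.957), CCDC117 (0.937), ARV1 (0.93), ALG14 (0.921) and MYBPC2 (0.906). MYBPC2, a muscle myosin-binding protein gene, averaged 95.04 FPKM in KO1R, 49.84 in KO1EV, 135.5 in KO2, 25.74 in KO1 and 76.78 in WT. Over the 12 Delta47 libraries the coefficients with NLRP11 were −0.39 for RPS6KC1, 0.459 for CCDC117, 0.88 for ARV1, 0.15 for ALG14 and −0.889 for MYBPC2.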

How the data were processed

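Poly-A RNA of OPM2 and Delta47 cells was sequenced as paired ends. The submitters' processing notes name hg19. Which aligner and counter were used is not given in the sources at hand. The deposited OPM2 values are FPKM, per the file headers, with column totals of 510776 to 566016. The deposited Delta47 table has no named unit and was handled as a signal (column totals of 534185 to 633778). With no counts at hand the depth behind each value is unknown. Of 30 libraries 27 were used: 3 Delta47 columns could not be matched to a group and were not used, and the KO2R columns were matched by the letter R, which no other Delta47 sample carries.

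Testing kept each gene that reached 1 in 3 or more libraries of its line, which left 10309 genes in OPM2 and 11001 in Delta47, on log2(value + 1) with limma-trend (limma 3.58.1, R 4.3.3), 1 fit per line over all groups, with two-sided tests, Benjamini-Hochberg adjustment over all tested genes and calls at an adjusted p below 0.05. Of the 8 genes, 4 passed this filter in OPM2 and 6 in Delta47. The fit was run on simulated data with independent noise and, for each gene, the same spread in every group. That setting does not cover the outlying OPM2 libraries, so nothing is read from it about the calls. Besides these genes and FOXM1, genes are named by smallest adjusted p within a list (up to 4, with a group mean of 2 or more), as neighbours of IFI16 or NLRP11, or by likeness; CASP4 in OPM2, CARD16, NLRP4 and NLRP9 were named after their values were seen. The members and lists were chosen with earlier results of these data known. Removal of the trend on transcript length (GENCODE lengths for 99.5% and 98.8% of tested genes) was added after seeing the data. Other settings were another pseudocount, quantile and median scaling, other filters, a replicate block, no mean-variance trend, only the compared groups, and leaving out libraries.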

Additional observations from a re-analysis of the deposited data

Results flagged for a closer look

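NLRP11 went in opposite directions in the OPM2 clones, with a log2 difference from WT of 2.41 in KO2 and −1.68 in KO1. CASP1 did so the other way round, with −0.80 in KO2 and 0.26 in KO1. Both differences between clones were not tested, since the set of genes was chosen with these comparisons in view. In Delta47 NLRP1 differed from WT by 0.42 in KO2 and by −0.13 in KO1. Between the clones the difference was 0.54 (limma, adjusted p = 2e-06, where 42.1% of tested genes were called). Genes were flagged here when both groups lay apart from their references in opposite directions, so that test adds no support to the flag. Between the lines, NLRP11 in KO1 against WT differed by −1.68 in OPM2 and by 0.22 in Delta47. The clones named KO1 share only a number, and in KO2 against WT NLRP11 was higher in both lines (2.41 in OPM2 and 0.22 in Delta47). CASP1 with the FOXM1c vector against the untransduced clone differed by −0.41 in OPM2 and by 0.25 in Delta47. These calls were lost in 4 of 15 other settings in OPM2 and in 5 of 14 in Delta47. In OPM2 the difference of KO1R from KO1EV was −0.17 and was not called (limma, adjusted p = 0.371), and that of KO1EV from KO1 was −0.24. In Delta47 the empty-vector group was not analysed here. The differences between lines were not tested because the tables were normalized separately.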

How the results depend on the processing

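The rise of IFI16 and of NLRP11 in OPM2 KO1R against KO1EV and of NLRP11 in Delta47 KO2R against KO2 held its direction and its call in every other setting that gave a value. Genes called in KO1R against KO1EV numbered 848, against 2726 without KO1EV and KO2 replicate 3, 1412 with only these groups fitted, and 424 to 576 without 1 library. For KO1EV against KO1 they numbered 510, against 314 with the filter at 5, 3302 without those libraries and 246 to 597 without 1 library; for KO1R against KO1, 2236, against 5581, 5174 with only these groups and 1234 to 1973. The higher to lower split of 320 to 528 in KO1R against KO1EV became 426 to 345 with quantile scaling, 484 to 266 with median scaling and 416 to 350 with the length trend removed, and that of 2773 to 4043 in Delta47 KO2R against KO2 became 3961 to 2852 with median scaling. For KO1R against KO1 the split of 645 to 1591 became 929 to 1019, 1141 to 921 and 947 to 952 in the same order. For Delta47 KO2 against KO1 the split of 2742 to 1894 became 1898 to 2576 with median scaling.

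With a pseudocount of 0.1, IFI16 in OPM2 was −0.98 (KO1EV against KO1), 0.43 (KO1R against KO1), −0.89 (KO1 against WT) and −1.42 (KO2 against WT), and −1.04 in Delta47 KO2 against WT. NLRP11 was 0.13, 3.53, −2.96 and 2.69 in the same OPM2 order, 5.65 for KO2 against KO1, and 0.38 in both Delta47 clones against WT. With quantile scaling IFI16 was −0.53, 0.50 and −0.83 in the first 3 OPM2 comparisons, and in Delta47 −0.69 (KO1 against WT), −1.07 (KO2 against WT) and 0.0092 (KO2R against KO2, reversed); NLRP11 was 0.14, 2.34 and −1.85. With median scaling IFI16 was 0.43 in KO1R against KO1, and in Delta47 0.0501 (KO2R against KO2, reversed), −0.41 (KO2 against KO1) and −1.07 (KO2 against WT); NLRP11 was 2.25 in KO1R against KO1 and −1.76 in KO1 against WT. With the length trend removed the same values were 0.42, 0.0247 (reversed), −0.39, −1.05, 2.27 and −1.77. The cause of these shifts was not tested.

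The filter at 5 left no value for IFI16, NLRP1 and CASP1 in OPM2 or for NLRP11 and CASP1 in Delta47. Same-numbered libraries of different groups deviated together with correlations of −0.197 to 0.751 in OPM2 and −0.223 to 0.201 in Delta47. In OPM2 all 3 such pairs were over 0.1 for KO1 with WT (0.152 to 0.412), a comparison given without tests in which a block leaves the difference as it is, and for KO2 with KO1EV (0.594 to 0.751), which were not compared and where unlike-numbered replicates 1 and 2 also reached 0.59 and 0.623. For KO1R with KO1EV 1 pair was below it (0.18, 0.086 and 0.258), but all were above 0, so a pairing by number is not excluded there. In no comparison with a test on these genes were all 3 pairs over 0.1, and the main fit used no pairing. With a replicate block 975 genes were called in KO1R against KO1EV, IFI16 stayed called (adjusted p = 0.000891) and BST2 did not (0.056), and no other call changed among the 8 genes and the list genes named by adjusted p. Depth is unknown, so low values such as those of AIM2, NLRP2 and GSDMD in OPM2 carry no counting interval.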
